A study of Mus musculus with 59 samples.

Results

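The genes described here are 35 genes that mark astrocytes and Bergmann glia, the astrocyte-like cells that surround cerebellar Purkinje cells. They are a list of gene names, drawn up with earlier results of these data known, and all 35 were found among the 54232 mouse genes counted in each library and passed the filter on low counts in every brain region. The data are RNA-seq libraries of whole tissue from the cortex, striatum, hippocampus, brainstem, and cerebellum of 12 mice aged 10 weeks. The mice were C57BL/6 (C57BL/6J in the study's methods). There are 59 libraries in all, each labelled with 1 mouse and 1 region. WT mice (WT-70 and WT-77, then WT-220 and WT-221) were compared with Atxn1_154Q/2Q mice (154Q, named 154Q-69 and 154Q-71, then 154Q-75 and 154Q-76) and with Atxn1_154Q[V591A;S602D]/2Q mice (154Q-AXH, named 154Q-AXH-207 and 154Q-AXH-209, then 154Q-AXH-217 and 154Q-AXH-218), and the values of single libraries below follow this order of the mice. 154Q mice are knockin mice that model spinocerebellar ataxia type 1 (SCA1). They carry 1 *Atxn1* allele with an expanded CAG repeat and 1 allele with a short repeat, both under the gene's own promoter, so the expanded protein is made wherever *Atxn1* is expressed and not in astrocytes alone. In 154Q-AXH mice the expanded allele also holds V591A and S602D, substitutions in the AXH domain made to prevent the binding of ATXN1 to the transcriptional repressor Capicua (CIC). The comparisons ask how an expanded *Atxn1* allele changes RNA levels in each region, and which of those changes differ when the allele cannot bind CIC.

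Astrocytes clear glutamate and GABA from synapses, buffer potassium, move water at the vessel wall, supply glutamine and lipids to neurons, and are joined to one another by gap junctions. Bergmann glia do the same around Purkinje cells, with a very high level of the glutamate transporter GLAST. When tissue is injured, astrocytes become reactive, for which a rise of the intermediate filaments GFAP and vimentin is the usual sign. Several members are also made by other cells, such as *Aldoc* in a part of the Purkinje cells, *S100b* and *Glul* in oligodendrocytes, *Apoe* and *Cst3* in microglia, and *Vim* in vessels and ependyma. In whole tissue, fewer cells of a type and less RNA per cell cannot be told apart.

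The number of read pairs counted per library ran from 34530406 to 46174761 in the cortex, 28058359 to 54719126 in the striatum, 69468491 to 106942535 in the hippocampus, 75374074 to 112343574 in the brainstem, and 64416717 to 106215143 in the cerebellum, so the cortex and striatum were sequenced less deeply. All groups had 4 libraries except the brainstem of 154Q-AXH mice, with 3 (none of 154Q-AXH-217). Some libraries stood apart. The hippocampal library of 154Q-76 held 373 CPM (counts-per-million) of 8 brainstem markers summed, where the other hippocampal libraries held 1.32 to 4.10 CPM, and it held both *Xist* (7.55 on the log2 CPM scale) and the Y-linked *Ddx3y* (5.75). Its brainstem marker sum was 50.0% of the WT brainstem mean. For 15 of the 35 members this library lay above, and for 5 below, all other hippocampal libraries, for example *Kcnj10* (451 CPM against 145 to 202), *S100b* (281 CPM against 79.1 to 119), and *Slc6a11* (325 CPM against 130.1 to 152). The cortical library of WT-221 held *Xist* at 8.88 and *Ddx3y* at -0.08 on the log2 CPM scale, the reverse of the other 4 libraries of this mouse. All libraries of 154Q-75 and 154Q-AXH-217 read as female (*Xist* 8.72 to 10.18 and *Ddx3y* -3.64 to 0.36), and those of the other mice as male apart from the 2 libraries just named, so each mutant group held 1 female and the WT group none but that cortical library. Without 154Q-75, the members called in 154Q mice (14, 11, 2, 12, and 4 with it, as given below) were 11 in the cortex, 1 in the striatum, 2 in the hippocampus, 12 in the brainstem, and 3 in the cerebellum, and the part of sex was not otherwise tested. The files of the cortical libraries of 154Q-76 and 154Q-AXH-207 carry each other's names, and the labels were followed here. Striatal libraries varied in striatal neuron markers (6 genes summed), with 1389.8 to 4510.1 CPM in WT, 555 to 978 CPM in 154Q, and 496 to 2775 CPM in 154Q-AXH mice. The highest of these came from WT-220 (4510.1 CPM) and 154Q-AXH-217 (2775 CPM). All 154Q mice have numbers of a lower series and all 154Q-AXH mice of a higher series, with 2 WT mice in each, so in the direct comparison of the 2 mutant genotypes, genotype and number series cannot be told apart. *Atxn1* itself, which is present in all 3 genotypes, had log2 differences from WT of 0.02 to 0.30 in the 10 comparisons, and none was called (smallest adjusted p = 0.0785).

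The promoters of 4 members that recur below are shown first, because these genes were lowered in several regions or, for *Kcnj10*, because the stretch holds a sequence that CIC binds. Each is the 250 bases before the RefSeq gene start (GRCm38.p6, plus strand), with any CIC octamer in capitals: *Id4* at chr13:48260866-48261115, *Gja1* at chr10:56377050-56377299, *Aldoc* at chr11:78322823-78323072, and *Kcnj10* at chr1:172340960-172341209.
Id4: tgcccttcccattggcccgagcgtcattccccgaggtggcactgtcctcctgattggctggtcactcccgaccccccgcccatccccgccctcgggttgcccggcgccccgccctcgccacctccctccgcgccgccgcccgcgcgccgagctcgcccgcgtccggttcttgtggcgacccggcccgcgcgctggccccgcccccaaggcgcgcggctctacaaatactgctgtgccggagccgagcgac
Gja1: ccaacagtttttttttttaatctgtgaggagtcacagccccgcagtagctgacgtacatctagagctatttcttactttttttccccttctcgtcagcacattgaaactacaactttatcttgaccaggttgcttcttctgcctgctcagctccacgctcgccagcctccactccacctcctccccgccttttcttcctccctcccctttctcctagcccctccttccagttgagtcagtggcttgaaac
Aldoc: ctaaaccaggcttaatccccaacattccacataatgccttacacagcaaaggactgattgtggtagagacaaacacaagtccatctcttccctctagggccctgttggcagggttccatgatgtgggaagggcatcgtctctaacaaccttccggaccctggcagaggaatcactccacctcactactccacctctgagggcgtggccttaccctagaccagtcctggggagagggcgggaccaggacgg
Kcnj10: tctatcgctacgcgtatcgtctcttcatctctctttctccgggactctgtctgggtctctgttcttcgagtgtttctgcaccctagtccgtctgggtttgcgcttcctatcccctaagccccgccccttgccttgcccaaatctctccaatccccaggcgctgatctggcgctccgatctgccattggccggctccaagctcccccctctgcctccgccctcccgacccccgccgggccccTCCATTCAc
The octamers searched were TGAATGAA, TGAATGGA, TCAATGAA, and TCAATGGA on both strands. In the 300-base windows of RefSeq, which add 50 bases after the start, 30 of the 35 members had at least 1 window, and 2 of their 37 windows held an octamer, those of *Kcnj10* and *Acsbg1*, while 3.84% of all 32851 windows did. The octamer of *Kcnj10* is TGAATGGA on the minus strand, which reads TCCATTCA above, at bases -9 to -2 from the start. *Id4* had none, nor did *Gja1* or either window of *Aldoc*, of which the upstream one is shown. The *Id4* window was rich in CG dinucleotides (39, more than in 95.6% of all windows, where the median is 7), and those of *Gja1* and the upstream one of *Aldoc* held 8 each.

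In WT mice, members differed strongly between regions. Per length (RPKM, mean ± SD, n = 4 mice), the highest members were the secreted protein *Sparcl1* in the cerebellum (789 ± 32.9) and brainstem (1139 ± 15.2), the protease inhibitor *Cst3* in the hippocampus (631 ± 102) and striatum (1123 ± 297), and the lipid carrier *Apoe* in the cortex (918 ± 34.97), level there with *Cst3* (918 ± 103). Glutamine synthetase, *Glul*, was among the 5 highest members of every region, with 276 ± 15.5 RPKM in the cerebellum and 556 ± 25.4 RPKM in the brainstem. At the low end stood *Chil1* in the cerebellum (2.47 ± 0.109) and *Gdf10* in the other 4 regions (1.32 ± 0.557 in the brainstem to 2.38 ± 0.750 in the striatum). By mean CPM, the cerebellum was the highest region for 15 members, the brainstem for 13, the striatum for 4, the cortex for 2, and the hippocampus for 1, *Slc1a2*.

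Each WT region was then compared with the mean of the other 4. In the cerebellum 17 members were higher (37.2% of all 22200 genes tested were) and 11 lower (35.2%). The brainstem had 21 higher (32.6%) and 8 lower (32%), the hippocampus 6 higher (30.6%) and 24 lower (26.9%), the striatum 8 higher (31.4%) and 18 lower (27.8%), and the cortex 8 higher (27.9%) and 16 lower (28.3%). Members were more often higher than genes at large in the cerebellum and brainstem, and more often lower in the hippocampus, striatum, and cortex. Their median log2 difference was 0.09, 0.40, -0.30, -0.20, and -0.09 in the order of the regions above, where the median of all genes lay between -0.05 and 0.02. *Ttyh1*, a tweety family membrane protein, was the most even member, with mean levels of 59.4 to 66.9 RPKM.

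**Figure D1:**
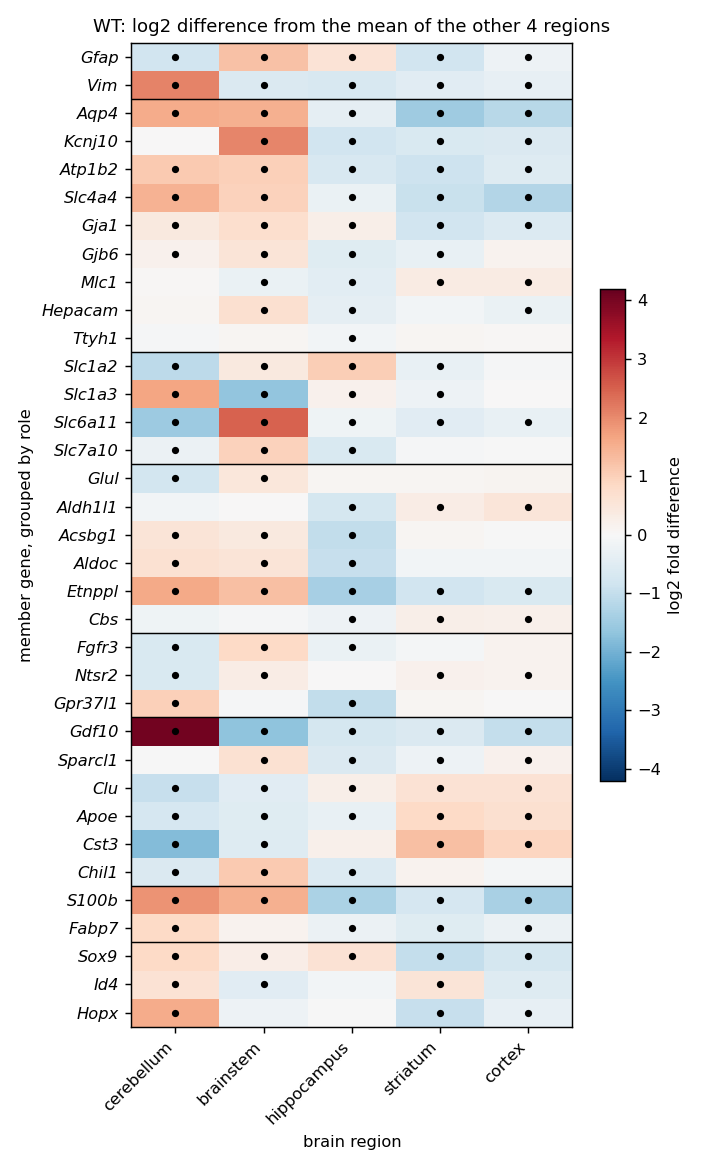
Log2 difference of each member (rows, grouped by role) between a WT region and the mean of the other 4 WT regions (columns), 4 libraries per region, with a dot where the adjusted p was under 0.05. *Gdf10* reached 4.04 in the cerebellum and *Slc6a11* 2.48 in the brainstem.

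The cerebellum was highest for 4 members whose level is given here in each WT library. These CPM were scaled over the WT libraries of all regions, so they differ slightly from those scaled within a region below. *Gdf10*, a bone morphogenetic protein family ligand of Bergmann glia, read 173, 172, 155, and 161 CPM in the cerebellum and 4.92, 9.99, 3.96, and 8.67 CPM in the brainstem of the same mice (log2 difference 4.04 ± 0.14 (SE), adjusted p = 1.23e-15 for the cerebellum). No cerebellar library overlapped a library of another region for this gene. *Vim* read 175, 136, 160.5, and 173 CPM in the cerebellum (log2 difference 2.10 ± 0.10 (SE), adjusted p = 7.14e-14) and 41.3 ± 4.25 CPM (SD, n = 4) in the cortex. *S100b*, a calcium-binding protein, read 633, 631, 543, and 538 CPM in the cerebellum (log2 difference 1.87 ± 0.08 (SE), adjusted p = 1.14e-14), just above the brainstem with 465, 537, 472, and 438 CPM and without overlap, and far above the cortex with 103, 99.5, 97.3, and 93.3 CPM. *Slc1a3*, the glutamate transporter GLAST, read 1480.1, 1498, 1576, and 1681 CPM in the cerebellum (log2 difference 1.65 ± 0.05 (SE), adjusted p = 9.80e-17) and 236, 284, 227, and 245 CPM in the brainstem. The other glutamate transporter, *Slc1a2* (GLT-1), had another order, with 3058, 2469, 3003, and 3461 CPM in the hippocampus (log2 difference 1.04 ± 0.07 (SE), adjusted p = 1.39e-10) and 909.9, 801, 925, and 1026 CPM in the cerebellum.

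The brainstem stood out for *Slc6a11*, the GABA transporter GAT3, at 594, 604, 575, and 545 CPM (log2 difference 2.48 ± 0.04 (SE), adjusted p = 8.04e-22), where the cerebellum held 62.6, 65.4, 61.1, and 61.6 CPM. *Kcnj10*, the potassium channel Kir4.1, read 809, 969, 885, and 873 CPM in the brainstem (log2 difference 2.04 ± 0.08 (SE), adjusted p = 5.86e-15) and 178, 158, 189, and 199 CPM in the hippocampus. *Aqp4*, the water channel of astrocyte end-feet, read 99.7, 87.1, 87.8, and 107 CPM in the striatum (log2 difference -1.50 ± 0.08 (SE), adjusted p = 7.01e-12) and 119, 102, 125, and 116 CPM in the cortex (log2 difference -1.16 ± 0.08 (SE), adjusted p = 3.09e-10), against 509, 438, 560.1, and 574 CPM in the cerebellum. The bicarbonate cotransporter *Slc4a4* was low in the cortex at 130.1, 124, 121, and 127 CPM (log2 difference -1.22 ± 0.07 (SE), adjusted p = 8.90e-12), and so was *S100b* (log2 difference -1.35 ± 0.10 (SE), adjusted p = 3.03e-10). The transcription factor *Sox9* read 15.9, 12.2, 17.2, and 15.3 CPM in the striatum (log2 difference -0.99 ± 0.11 (SE), adjusted p = 9.83e-08), and *Cst3* was high there, at 1067, 1502, 1917, and 1203 CPM (log2 difference 1.25 ± 0.12 (SE), adjusted p = 1.30e-08). In the hippocampus *Etnppl*, an ethanolamine phosphate lyase, was low at 19.2, 27.1, 16.6, and 13.3 CPM (log2 difference -1.40 ± 0.15 (SE), adjusted p = 1.35e-07), as was *S100b* at 101, 116, 94.3, and 88.7 CPM (log2 difference -1.32 ± 0.09 (SE), adjusted p = 2.94e-10). Leaving out the cortical library of WT-221 gave 22 called members in the cortex in place of 24, and 26 to 30 in each of the other regions.

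Against this background, 154Q mice had lower levels of members in every region, and no member was called higher in any. The cortex had 14 lowered members (6.71% of all tested genes were lowered and 4.4% raised), the brainstem 12 (0.4% and 0.138%), the striatum 11 (3.77% and 1.92%), the cerebellum 4 (3.12% and 2.1%), and the hippocampus 2 (3.39% and 2.52%). As a share of 35, these counts were above the background in every region, in the hippocampus only by a little. The list was drawn up with earlier results of these data known, so this is no independent test. The hippocampal count was 10 without the mixed library of 154Q-76, where 3.61% of all genes were lowered. The members' median log2 difference was -0.20, -0.20, -0.30, -0.10, and -0.10 in the same order of regions, where that of all genes lay between -0.01 and 0.02. In all, 24 members were lowered in at least 1 region, and 11 in none: *Slc1a3*, *Vim*, *Slc4a4*, *Fgfr3*, *Hepacam*, *Sox9*, *Hopx*, *Apoe*, *Cst3*, *Fabp7*, and *Cbs*. The mouse number series as a covariate left 5, 3, 0, 4, and 1 called members in this order, and DESeq2 gave 18, 16, 15, 5, and 5. With the series in the fit, 154Q mice share their series with 2 WT mice only.

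**Figure D2:**
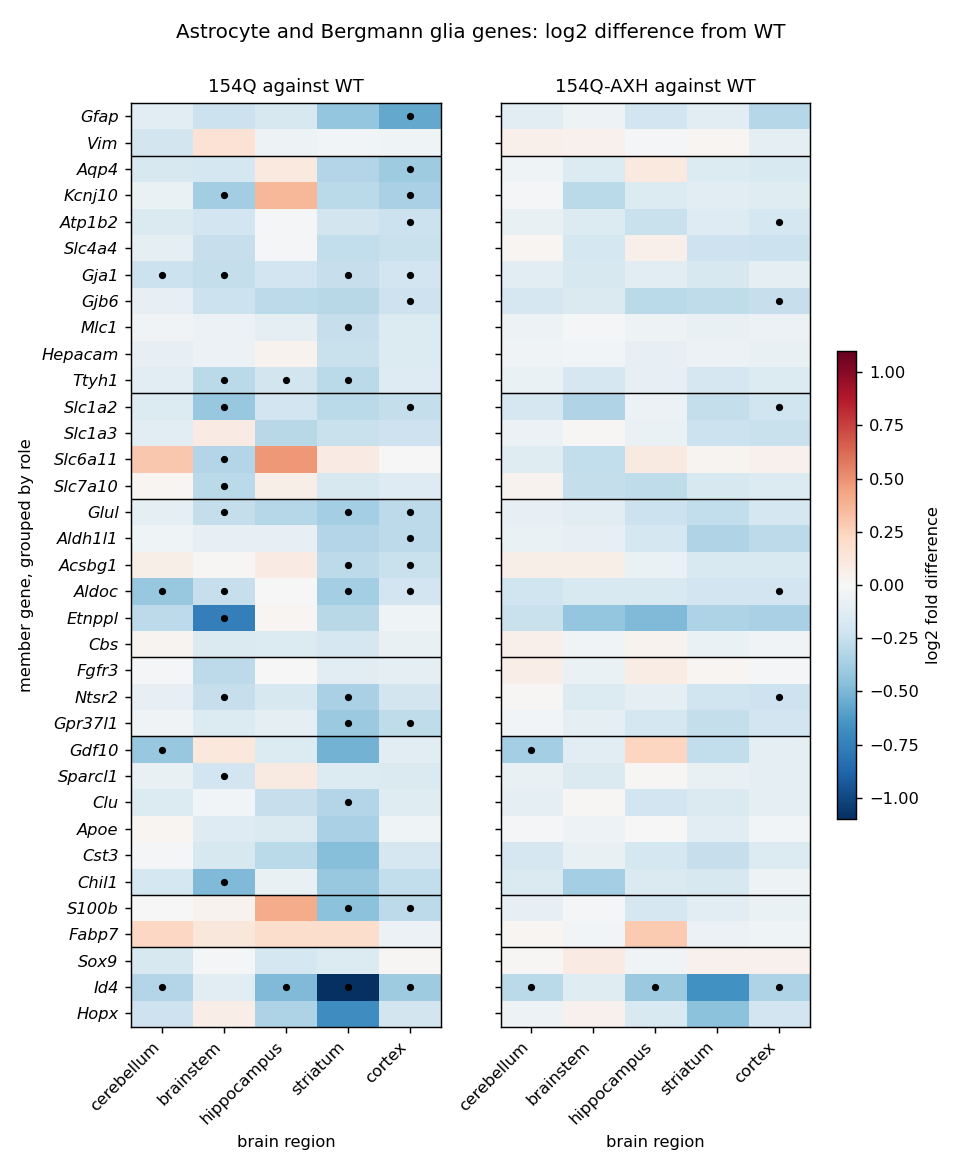
Log2 difference of each member (rows, grouped by role) from WT in 154Q mice (left) and 154Q-AXH mice (right) in 5 brain regions (columns), with a dot where the adjusted p was under 0.05. All 43 dots on the left and all 9 on the right lie on negative differences.

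Summed over the 35 members, the level in 154Q mice was 85.3% of the WT mean in the brainstem, 80.5% in the striatum, 87.6% in the cortex, 91.4% in the cerebellum, and 91.4% in the hippocampus. Such a sum mostly follows the most abundant members, among them *Sparcl1*, *Apoe*, *Cst3*, *Slc1a2*, *Glul*, and *Aldoc*. Of these, *Sparcl1*, *Apoe*, *Cst3*, and *Slc1a2* were not called in the striatum. Sums of neuron and oligodendrocyte markers were lower in some regions too, as given below. Brainstem sums ran from 18026 to 19026 CPM in WT mice and from 15311 to 16028 CPM in 154Q mice, and no library overlapped. The same held for the cerebellum (15014 to 16291 CPM against 13915 to 14463 CPM), striatum (13335 to 15222 CPM against 11314 to 11822 CPM), and cortex (14488 to 15139.8 CPM against 12363 to 13676 CPM). Hippocampal sums overlapped through 154Q-76 alone (14243 CPM, against 13334 to 14129 CPM in WT). In 154Q-AXH mice the sums ran from 88.2% of the WT mean in the striatum to 93.9% in the cerebellum, with 90.0% in the brainstem, 90.3% in the cortex, and 93.4% in the hippocampus.

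**Figure D3:**
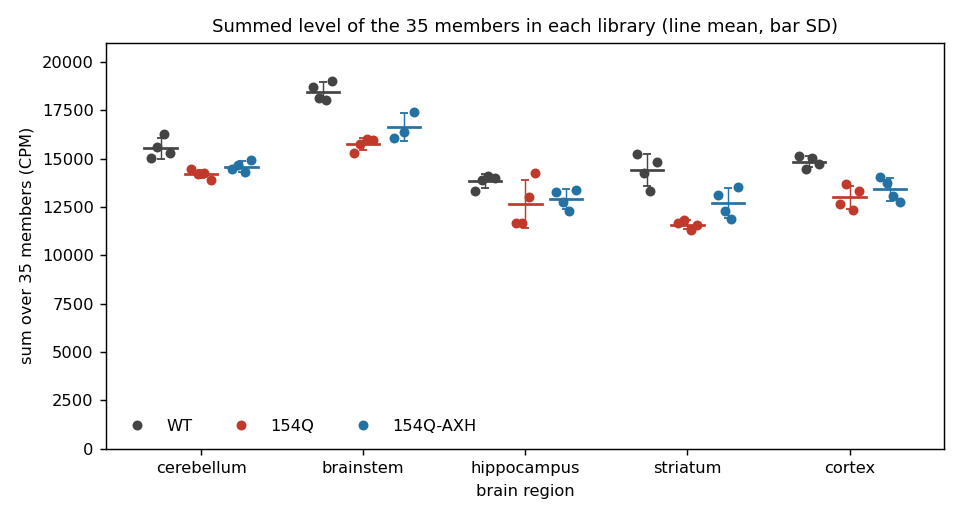
Summed level of the 35 members in CPM (y axis) in each library, by brain region (x axis) and genotype, with group means as lines and SD as bars. In the cerebellum, brainstem, striatum, and cortex all 154Q libraries lie below all WT libraries.

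In the cerebellum, the genes lowered in 154Q mice were a metabolic enzyme, a nuclear regulator, a secreted ligand, and a gap junction protein. *Aldoc*, the glycolytic enzyme aldolase C (chromosome 11, 78322968 to 78327781), read 1889, 1590.5, 1616, and 1691 CPM in WT mice, 1297, 1268, 1271, and 1234 CPM in 154Q mice, and 1469.5, 1435, 1370.0, and 1564 CPM in 154Q-AXH mice, and fell to 0.747 times its WT level (log2 difference -0.42 ± 0.05 (SE), adjusted p = 0.000273). *Id4*, an inhibitor of DNA binding by helix-loop-helix factors (chromosome 13, 48261228 to 48266026), read 167, 174, 149, and 161 CPM in WT mice, 128, 132, 132, and 128 CPM in 154Q mice, and 123, 134, 137, and 135 CPM in 154Q-AXH mice (log2 difference -0.32 ± 0.05 (SE), adjusted p = 0.000951). For both genes every 154Q library lay below every WT library. *Gdf10* (chromosome 14, 33923587 to 33937983), the member most particular to the cerebellum above, read 182, 183, 157, and 166 CPM in WT mice, 121, 135, 138, and 122 CPM in 154Q mice, and 131, 125, 128, and 146 CPM in 154Q-AXH mice (log2 difference -0.42 ± 0.06 (SE), adjusted p = 0.00115), again without overlap between WT and 154Q mice. *Gja1*, the gap junction protein connexin 43 (chromosome 10, 56377330 to 56402513), read 289.6, 249, 291, and 303 CPM in WT mice, 259, 226, 231, and 244 CPM in 154Q mice, and 261, 263, 262, and 251 CPM in 154Q-AXH mice (log2 difference -0.24 ± 0.06 (SE), adjusted p = 0.0236), and here the groups overlapped. *Slc1a3*, the transporter by which Bergmann glia take up glutamate, had a log2 difference of -0.12 ± 0.04 and was not called (adjusted p = 0.106), nor was *Hopx* (-0.23 ± 0.07, adjusted p = 0.105). Beside these members, 3 of 6 cerebellar neuron markers were lowered in the same libraries, the Purkinje cell genes *Calb1* and *Car8* and the granule cell gene *Cbln1*, and their sum was 7272 to 7624 CPM in WT, 6056 to 6366 CPM in 154Q, and 6751 to 7080.3 CPM in 154Q-AXH mice. The part of Purkinje cells in the level of *Aldoc* was not tested. The calls of *Aldoc*, *Id4*, and *Gdf10* held in all 17 alternative fits.

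In the brainstem 12 members were lowered, where 0.4% of all tested genes were, and 3 with the number series as a covariate. *Etnppl* (chromosome 3, 130617448 to 130637521) read 83.3, 98.8, 78.1, and 80.0 CPM in WT mice, 55.0, 51.2, 49.2, and 46.3 CPM in 154Q mice, and 61.0, 61.8, and 67.5 CPM in 154Q-AXH mice, and fell to 0.593 times its WT level (log2 difference -0.75 ± 0.07 (SE), adjusted p = 0.00169). *Ttyh1* (chromosome 7, 4119408 to 4136708) read 449, 441, 428, and 434 CPM in WT mice, 354, 363, 366, and 344 CPM in 154Q mice, and 375, 386, and 398 CPM in 154Q-AXH mice (log2 difference -0.30 ± 0.03 (SE), adjusted p = 0.00288). *Chil1*, a secreted chitinase-like protein (chromosome 1, 134182176 to 134190181), was low but steady at 18.6, 17.4, 18.3, and 19.3 CPM in WT mice, 13.1, 14.0, 11.9, and 13.4 CPM in 154Q mice, and 14.4, 13.9, and 14.4 CPM in 154Q-AXH mice (log2 difference -0.49 ± 0.06 (SE), adjusted p = 0.00288). *Kcnj10* (chromosome 1, 172341210 to 172374085) read 831, 987, 907, and 905 CPM in WT mice, 681, 722, 663, and 724 CPM in 154Q mice, and 709, 713, and 801 CPM in 154Q-AXH mice (log2 difference -0.38 ± 0.06 (SE), adjusted p = 0.0105). For all 4 genes each 154Q library lay below each WT library, and so did each 154Q-AXH library. The other lowered members were *Slc7a10*, a neutral amino acid transporter with 17.9% of its exon bases shared with *Lrp3* (-0.30 ± 0.04), *Slc1a2* (-0.42 ± 0.07), *Gja1* (-0.26 ± 0.04), *Slc6a11* (-0.33 ± 0.06), the neurotensin receptor *Ntsr2* (-0.25 ± 0.05), *Glul* (-0.26 ± 0.05), *Aldoc* (-0.25 ± 0.05), and *Sparcl1* (-0.21 ± 0.04). By role these were 3 of 4 amino acid transporters, 3 of 9 water, ion, and junction genes, 3 of 6 metabolic enzymes, 2 of 6 secreted proteins, and 1 of 3 receptors. *Slc1a3* was at 0.09 ± 0.09 and not called (adjusted p = 0.773). *Etnppl*, *Ttyh1*, and *Chil1* were called in all 16 alternative fits, while leaving out WT-220, WT-221, or 154Q-69 left 5 called members, 154Q-71 left 6, and WT-70 left 7, and a fit of WT and 154Q alone left 7.

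**Figure D4:**
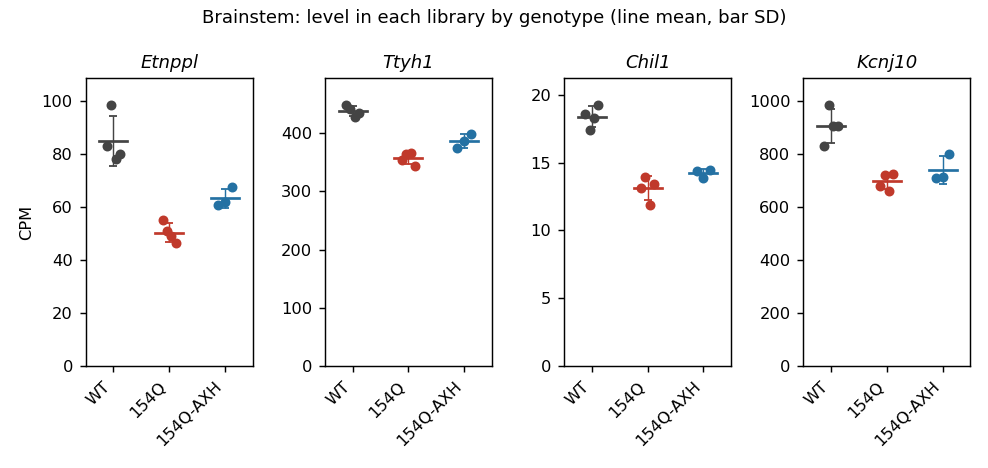
Levels in CPM (y axes, from 0) of *Etnppl*, *Ttyh1*, *Chil1*, and *Kcnj10* in each brainstem library by genotype (x axis), with group means as lines and SD as bars. In all 4 genes both mutant genotypes lie below WT, and the 154Q-AXH mean lies between the other 2.

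In the hippocampus the number of calls changed with the mixed library of 154Q-76. With it, 2 members were lowered. *Id4* read 114, 119.9, 96.7, and 98.8 CPM in WT mice, 74.0, 71.8, 82.2, and 78.3 CPM in 154Q mice, and 77.6, 89.1, 77.2, and 78.9 CPM in 154Q-AXH mice (log2 difference -0.49 ± 0.08 (SE), adjusted p = 0.00455), with all 8 mutant libraries below all 4 WT libraries, and *Ttyh1* read 405, 389, 374, and 379 CPM in WT mice, 319.7, 330.4, 329, and 362 CPM in 154Q mice, and 356, 363, 353, and 377 CPM in 154Q-AXH mice (log2 difference -0.21 ± 0.05 (SE), adjusted p = 0.0397). Without that library, 10 members were lowered (3.61% of all genes then tested) and none was raised: *Id4* (-0.51 ± 0.09), *Atp1b2*, a subunit of the sodium pump (-0.31 ± 0.05), *Ttyh1* (-0.25 ± 0.05), *Gja1* (-0.29 ± 0.06), *Gjb6* or connexin 30 (-0.44 ± 0.09), *Glul* (-0.38 ± 0.08), *Ntsr2* (-0.27 ± 0.06), *Gfap* (-0.37 ± 0.08), *Chil1* (-0.41 ± 0.11), and the orphan receptor *Gpr37l1* (-0.27 ± 0.07). The positive differences of *Slc6a11* (0.47 ± 0.23), *S100b* (0.40 ± 0.33), and *Kcnj10* (0.37 ± 0.28) with all libraries, none of them called, turned to 0.07 ± 0.06, -0.25 ± 0.09, and -0.15 ± 0.09 without it. Neuron marker sums moved with these values. The sum of 6 cortex markers was 407 to 537 CPM in WT and 311 to 339 CPM in 154Q mice without overlap, that of 6 hippocampus markers 319 to 484 CPM and 216.98 to 323 CPM with overlap, and that of 8 general neuron markers 5927 to 6437 CPM and 5338 to 6218 CPM with overlap. Of these, *Neurod6*, *Lct*, and *Rbfox3* were lowered and *Stmn2* was raised, and their part in the differences of the members was not tested. *Id4* was called in all 17 alternative fits. *Ttyh1* was not, since the count was 1 without any one of the WT mice, without 154Q-69 or 154Q-71, and without 154Q-AXH-207, 154Q-AXH-209, or 154Q-AXH-217, and it was 3 without 154Q-AXH-218.

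The median difference of the members was lowest in the striatum. *Gja1* read 137, 139, 136, and 143 CPM in WT mice, 117, 113, 118, and 118 CPM in 154Q mice, and 130.3, 119, 117, and 124 CPM in 154Q-AXH mice (log2 difference -0.25 ± 0.05 (SE), adjusted p = 0.0150). *Glul* read 1411, 1452, 1478, and 1552 CPM in WT mice, 1167, 1109, 1140.2, and 1132 CPM in 154Q mice, and 1287, 1189, 1102, and 1315 CPM in 154Q-AXH mice (log2 difference -0.37 ± 0.08 (SE), adjusted p = 0.0162). *Gpr37l1* read 230.2, 301, 270.4, and 248 CPM in WT mice, 206, 214, 179.7, and 191 CPM in 154Q mice, and 227, 205, 217.5, and 227 CPM in 154Q-AXH mice (log2 difference -0.41 ± 0.09 (SE), adjusted p = 0.0164). *Ntsr2* read 129.9, 147, 156, and 129.6 CPM in WT mice, 119, 116, 101, and 103 CPM in 154Q mice, and 119.5, 117, 129, and 118 CPM in 154Q-AXH mice (log2 difference -0.36 ± 0.08 (SE), adjusted p = 0.0203). No 154Q library of these 4 genes overlapped a WT library. The other 7 were *Ttyh1* (-0.30 ± 0.07), the chaperone *Clu* (-0.32 ± 0.07), *Aldoc* (-0.37 ± 0.09), the acyl-CoA synthetase *Acsbg1* (-0.29 ± 0.07), *Mlc1*, a membrane protein of astrocyte junctions (-0.25 ± 0.06), *Id4* (-1.10 ± 0.29), and *S100b* (-0.45 ± 0.12). *Id4* read 126, 106, 252, and 111 CPM in WT mice, 62.7, 70.2, 77.5, and 67.3 CPM in 154Q mice, and 78.6, 91.7, 143, and 61.2 CPM in 154Q-AXH mice, and the highest value in WT and in 154Q-AXH mice came from WT-220 and 154Q-AXH-217, the libraries highest in striatal neuron markers. Oligodendrocyte markers (8 genes summed) differed by genotype too, at 10108 to 16764 CPM in WT and 7326 to 8849 CPM in 154Q mice, although none of the 8 was called (all 8 had a difference below 0, and 6 an unadjusted p under 0.05), and neuron markers (8 genes) ran at 5218 to 8217 CPM and 6583 to 6654 CPM. The part of these differences in those of the members was not tested. Without WT-220 and 154Q-AXH-217, which was tried after the data were seen, 15 members were lowered (7.45% of all genes then tested), among them 10 of the 11 above, with *S100b* lost and *Slc1a3*, *Aqp4*, *Slc1a2*, *Hopx*, and *Aldh1l1* added, and *Id4* was at -0.70 ± 0.11. The striatal count depended on single mice. Without 154Q-75 or 154Q-76 it was 1, without 154Q-69 or 154Q-71 it was 3, without 154Q-AXH-209 it was 5, and without WT-77, WT-221, or 154Q-AXH-207 it was 6.

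Cortical members were lowered in the largest number, in a region where many genes were. *Aqp4* read 119, 102, 124, and 116 CPM in WT mice, 94.5, 83.7, 85.5, and 86.8 CPM in 154Q mice, and 110.3, 101, 98.8, and 99.9 CPM in 154Q-AXH mice (log2 difference -0.39 ± 0.06 (SE), adjusted p = 0.000781). *Atp1b2* read 429.9, 423, 424, and 419 CPM in WT mice, 363, 374, 343, and 359 CPM in 154Q mice, and 380.3, 372, 379, and 354 CPM in 154Q-AXH mice (log2 difference -0.24 ± 0.04 (SE), adjusted p = 0.00170). *Id4* read 86.3, 77.8, 88.2, and 77.5 CPM in WT mice, 63.7, 72.5, 60.0, and 54.8 CPM in 154Q mice, and 60.8, 70.8, 59.0, and 69.4 CPM in 154Q-AXH mice (log2 difference -0.39 ± 0.08 (SE), adjusted p = 0.00650), and *Aldoc* read 1098, 1099, 1061, and 1018 CPM in WT mice, 882, 953, 909.9, and 941 CPM in 154Q mice, and 949, 949.7, 904, and 889 CPM in 154Q-AXH mice (log2 difference -0.21 ± 0.05 (SE), adjusted p = 0.00751). All 154Q libraries lay below all WT libraries in these 4 genes, which were picked by lowest p. *Gfap* fell as well (-0.56 ± 0.17), opposite to the direction by which astrocytes are called reactive. This call held in only 9 of 19 alternative fits, and was lost without the cortical libraries of 154Q-76 and 154Q-AXH-207. *Vim* was at -0.05 ± 0.09 (adjusted p = 0.769). The other lowered members were *S100b* (-0.29 ± 0.06), *Glul* (-0.29 ± 0.07), *Slc1a2* (-0.27 ± 0.06), *Gpr37l1* (-0.28 ± 0.06), *Acsbg1* (-0.24 ± 0.06), *Gjb6* (-0.23 ± 0.06), *Gja1* (-0.21 ± 0.06), *Aldh1l1*, a folate enzyme used as an astrocyte marker, with 13.4% of its exon bases in other genes (-0.29 ± 0.08), and *Kcnj10* (-0.35 ± 0.11). By role, the 14 included 5 of 9 water, ion, and junction genes, 4 of 6 metabolic enzymes, 1 of 4 amino acid transporters, and none of the 6 secreted proteins. The roles hold 2 to 9 genes each, and differences between roles were not tested. Neuron markers were lowered in the same libraries, 4 of 8 against 1 raised, with sums of 7427 to 7964 CPM in WT and 6152 to 7218 CPM in 154Q mice, and oligodendrocyte sums ran at 6105 to 7579 CPM and 4852 to 6522 CPM, with all 8 markers below 0 at an unadjusted p under 0.05 and none called. Their part in the differences of the members was not tested. Without the cortical libraries of 154Q-76 and 154Q-AXH-207, 9 of the 14 members remained called, and without WT-221 or WT-220 the count was 10 and 9. *Aqp4*, *Atp1b2*, *Aldoc*, *S100b*, and *Gpr37l1* held in all 19 alternative fits.

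*Id4*, *Gja1*, and *Aldoc* were each lowered in 4 of the 5 regions of 154Q mice, *Glul* and *Ttyh1* in 3. The calls of *Gja1* held in 10 of 17 alternative fits (cerebellum), 10 of 16 (brainstem), 14 of 18 (striatum), and 10 of 19 (cortex). Those of *Aldoc* held in 17, 6, 9, and 19 in this order. Those of *Id4* held in 17 of 17 (cerebellum and hippocampus), 8 of 18 (striatum), and 18 of 19 (cortex). *Glul* held in 7 of 16 (brainstem), 13 of 18 (striatum), and 18 of 19 (cortex). *Ttyh1* held in 16 of 16 (brainstem), 5 of 17 (hippocampus), and 14 of 18 (striatum). For *Gja1* the log2 difference was of similar size in the 5 regions, at -0.26 in the brainstem, -0.25 in the striatum, -0.24 in the cerebellum, -0.21 in the cortex, and, without a call, -0.21 in the hippocampus. For *Id4* it ran from -0.12 in the brainstem (adjusted p = 0.698) to -1.10 in the striatum. The interaction of the 154Q genotype with region, which tests whether the difference from WT is unequal between regions, was called for *Id4* alone among the 35 (adjusted p = 0.0350, where 5.71% of 23359 genes were called). With the mouse as replicate block, *Etnppl* was called too (adjusted p = 0.0114), and without the doubted libraries *Acsbg1* (adjusted p = 0.00762), while *Id4* stayed called in both (adjusted p = 0.0471 and 0.0477). The call of *Id4* was lost when WT-70 or WT-220 or any one of the 4 154Q mice was left out. For 154Q-AXH mice no member had a called interaction (1.33% of 23624 genes did), and the lowest adjusted p was 0.298, of *Acsbg1*.

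**Figure D5:**
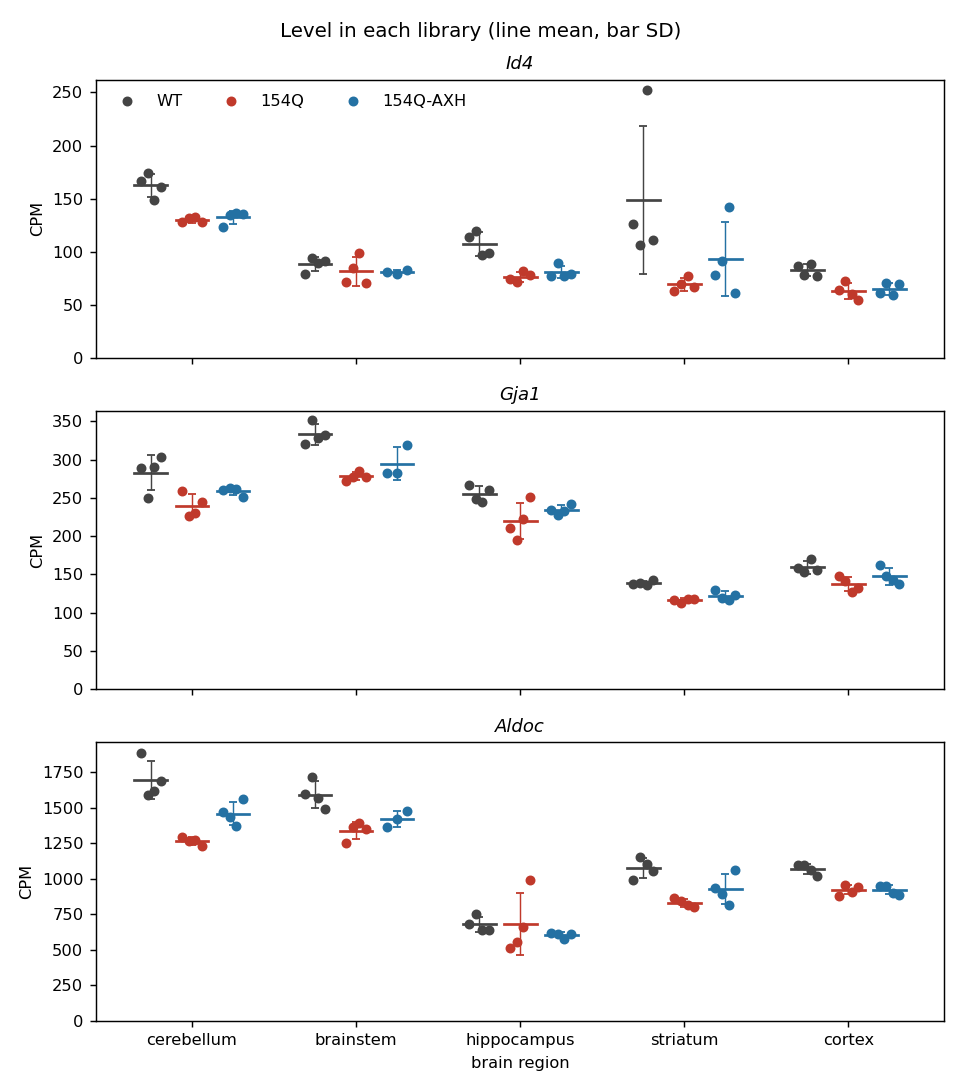
Levels in CPM (y axes, from 0) of *Id4*, *Gja1*, and *Aldoc* in each library by brain region (x axis) and genotype, with group means as lines and SD as bars. The striatal WT library near 250 CPM for *Id4* is WT-220, and the hippocampal 154Q library at 992 CPM for *Aldoc* is 154Q-76.

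In 154Q-AXH mice fewer members passed the test, and again none was raised. The cortex had 6 lowered members (4.76% of all genes were lowered and 2.39% raised), the cerebellum 2 (1.13% and 1.08%), the hippocampus 1 (0.671% and 0.629%), the striatum 0 (1.08% and 0.277%), and the brainstem 0 (0.0138% and 0%). In the cerebellum they were *Gdf10* (log2 difference -0.38 ± 0.06 (SE), adjusted p = 0.00646) and *Id4* (log2 difference -0.30 ± 0.05 (SE), adjusted p = 0.00517), both of which held in all 17 alternative fits. *Id4* was also the hippocampal gene (log2 difference -0.41 ± 0.08 (SE), adjusted p = 0.0257). The cortical members were *Atp1b2* (-0.19 ± 0.04), *Aldoc* (-0.21 ± 0.05), *Id4* (-0.34 ± 0.08), *Gjb6* (-0.26 ± 0.06), *Slc1a2* (-0.22 ± 0.06), and *Ntsr2* (-0.23 ± 0.07). In the brainstem and striatum, where edgeR called none, 15 and 13 members had an unadjusted p under 0.05, counts not set against those of all genes. DESeq2 called 7 members in the brainstem, where it called 0.372% of 20684 genes, and 2 in the striatum. The 7 brainstem members of DESeq2 were *Chil1*, *Etnppl*, *Slc7a10*, *Ttyh1*, *Kcnj10*, *Slc1a2*, and *Slc6a11*. Without WT-220 and 154Q-AXH-217, *Id4* was called in the striatum (-0.56 ± 0.12, adjusted p = 0.0226). The median of the members was -0.15, -0.07, -0.10, -0.18, and -0.11 in this order of regions, with that of all genes between -0.01 and 0.00. The series as covariate left the 2 cerebellar calls and no other. Without WT-77, 4 were called in the cerebellum. The hippocampal call was lost without WT-70, WT-77, 154Q-AXH-207, 154Q-AXH-217, or 154Q-AXH-218, and 2 were called without 154Q-76. In the cortex 2 were called without WT-70 or WT-220, 3 without 154Q-AXH-218, and 10 without 154Q-71.

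The 2 mutant genotypes share their WT mice, so their differences from WT are set side by side here and the direct comparison is the test. *Etnppl* in the brainstem was at -0.75 ± 0.07 in 154Q and -0.42 ± 0.08 in 154Q-AXH mice, *Aldoc* in the cerebellum at -0.42 ± 0.05 and -0.22 ± 0.05, *Gdf10* in the cerebellum at -0.42 ± 0.06 and -0.38 ± 0.06, *Gpr37l1* in the striatum at -0.41 ± 0.09 and -0.26 ± 0.09, and *Aqp4* in the cortex at -0.39 ± 0.06 and -0.17 ± 0.06. Tested directly, no member differed between 154Q-AXH and 154Q mice in any region by edgeR's quasi-likelihood test, where 0.0335% of all genes did in the cerebellum and 0% in each other region. An unadjusted p under 0.05 was found for 3 members in the cortex, 4 in the striatum, 1 in the hippocampus, 4 in the brainstem, and 6 in the cerebellum. These unadjusted counts were not set against those of all genes, and no conclusion is drawn from them. DESeq2 called 1 member, *Etnppl* in the brainstem (0.34 ± 0.08, adjusted p = 0.0348), where it called 0.208% of 19246 genes. The edgeR differences were 0.33 ± 0.08 for *Etnppl* (adjusted p = 0.626), 0.20 ± 0.05 for cerebellar *Aldoc* (adjusted p = 0.322), 0.04 ± 0.06 for cerebellar *Gdf10*, and 0.23 ± 0.06 for cortical *Aqp4* (adjusted p = 0.744). The member medians were 0.04, 0.14, 0.04, 0.06, and 0.04 in this order, all above 0, and were not set against the medians of all genes.

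Among members that were not called in 154Q mice, the nuclear and developmental genes differed in sign. *Fabp7*, a fatty acid-binding protein of radial and Bergmann glia, was above 0 in 4 regions, from 0.13 ± 0.09 in the brainstem to 0.22 ± 0.10 in the cerebellum, and at -0.06 ± 0.11 in the cortex. *Sox9* lay between -0.19 ± 0.08 in the hippocampus and 0.02 ± 0.13 in the cortex. *Hopx* was at -0.69 ± 0.19 in the striatum and just missed the threshold (adjusted p = 0.05001), and 27.2% of its exon bases are shared with an antisense gene, *Hopxos*, whose reads cannot be told apart in counts without strand. *Apoe* and *Cst3* were at -0.36 ± 0.13 and -0.47 ± 0.14 in the striatum. *Hepacam*, the partner of *Mlc1*, had its lowest value there too (-0.25 ± 0.09), *Slc4a4* was at -0.27 ± 0.13, and *Cbs*, of the transsulfuration pathway, at -0.19 ± 0.08. The growth factor receptor *Fgfr3* was lowest in the brainstem (-0.29 ± 0.07, adjusted p = 0.133), and 13.9% of its exon bases overlap another gene.

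A list of 26 other astrocyte genes, which share no gene with the 35, had counts of the same direction in 154Q mice. Like the members, this list and those that follow were drawn up with earlier results of these data known. Their counts are therefore no independent test. Of the 25 tested, 10 were lowered in the cortex (6.71% of all tested genes were) and 10 in the striatum (3.77%). The hippocampus had 3 (3.39%), the brainstem 4 (0.4%), and the cerebellum 2 (3.12%), and none was raised in any region. The lowest p values belonged to *Slc14a1* (-0.27 ± 0.07) and *S1pr1* (-0.16 ± 0.04) in the cerebellum, *Plpp3* (-0.26 ± 0.04), *Phkg1* (-0.27 ± 0.05), and *Lcat* (-0.36 ± 0.07) in the brainstem, *Dio2* (-0.61 ± 0.13), *S1pr1* (-0.29 ± 0.07), and *Sox2* (-0.20 ± 0.05) in the hippocampus, and *Lcat*, *Dio2*, and *Grm3* in the striatum (-0.62 ± 0.11, -0.73 ± 0.14, and -0.42 ± 0.09) and cortex (-0.51 ± 0.07, -0.69 ± 0.11, and -0.45 ± 0.07). In 154Q-AXH mice 3 of them were lowered in the cortex (4.76% of all tested genes were), 1 in the striatum (1.08%), and 1 in the cerebellum (1.13%). None was raised. Of 10 further Bergmann glia genes, *A2m* (-0.32 ± 0.05) and *Gli1*, a target of Sonic hedgehog signalling (-0.32 ± 0.07), were lowered in the cerebellum of 154Q mice and none was raised there. Outside the cerebellum 1 of these was lowered in the hippocampus (*Gria1*, -0.58 ± 0.13), 1 in the striatum (*Timp4*, -0.46 ± 0.09), and 1 in the cortex (*Gria4*, -0.36 ± 0.05), where *Gli1* rose (0.60 ± 0.14). None passed in the brainstem, and in 154Q-AXH mice only *Gria4* in the cortex did (-0.30 ± 0.05).

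No reactive astrocyte gene passed the test as raised in 154Q mice, where 0.138% (brainstem) to 4.4% (cortex) of all tested genes did. Of 33 such genes, 28 to 32 were tested per region. Lowered ones were 0 in the cerebellum (3.12% of all tested genes were lowered) and brainstem (0.4%). In these 2 regions 4 and 7 had an unadjusted p under 0.05 in either direction. The hippocampus had 3 lowered (3.39%), *Ptgs2* (-1.35 ± 0.21), *Amigo2* (-0.82 ± 0.14), and *Fkbp5* (-0.72 ± 0.15). The striatum had 1 (3.77%), *Aspg* (-1.04 ± 0.20). The cortex had 3 (6.71%), *Aspg* (-0.51 ± 0.12), *Cd44* (-1.43 ± 0.35), and *Ptgs2* (-0.61 ± 0.16). These counts are small, and no conclusion is drawn from them. *Ptgs2* and *Amigo2* are also made by neurons. In 154Q-AXH mice *Serpina3n*, a protease inhibitor of reactive astrocytes, rose in the cortex (0.81 ± 0.22), where 2.39% of all genes were raised. Of the list, 2 genes were lowered there (4.76% of all genes were), 1 in the striatum (1.08%), and 1 in the hippocampus (0.671%). Summed reactive levels overlapped between WT and 154Q mice in every region but the hippocampus (319 to 355 CPM in WT and 267 to 307 CPM in 154Q mice). Mean sums in 154Q mice were above WT in the brainstem (341 against 321 CPM) and cortex (247 against 245 CPM), and below it in the other regions.

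Among markers of other cells, those of neurons were the ones called most in the same 154Q libraries. Of 8 general neuron markers, 4 were lowered and 1 raised in the cortex, 1 lowered and 1 raised in the hippocampus, 1 lowered in the brainstem, 1 lowered in the cerebellum, and 0 called in the striatum. Sums of the region's own neuron markers did not overlap between WT and 154Q mice in the cerebellum and striatum, as given above, nor in the cortex (867 to 1005 CPM and 662 to 770.0 CPM). None of 8 oligodendrocyte, 7 microglial, 5 tested ependymal, 8 choroid plexus, or 6 meningeal fibroblast markers was called in any region by edgeR, 1 of 8 endothelial and mural markers was (*Cldn5*, lowered in the striatum), and 1 of 4 oligodendrocyte precursor markers was lowered in each of the brainstem and cortex. Below the threshold, all 8 oligodendrocyte markers had differences below 0 in the brainstem, 5 of them at an unadjusted p under 0.05. Brainstem oligodendrocyte sums were 20763 to 23642 CPM in WT and 18297 to 20862 CPM in 154Q mice, and microglial sums 197 to 222 CPM and 195 to 224 CPM. Choroid plexus markers varied between libraries of each group, for example from 239 to 5025 CPM in the WT cerebellum. The part of other cell types in the differences of the members was not tested.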

How the data were processed

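Poly(A) RNA from each library was sequenced as read pairs. According to the study's methods and the submitters' notes, the authors trimmed reads with Trimmomatic 0.36 and aligned them with STAR 2.7.2d to GRCm38.p6 with GENCODE M18. The deposited files hold STAR's counts per gene, and the column without strand was used as deposited, without the summary lines of pairs assigned to no gene (75.3% to 81.2% of pairs were counted) and 1 line that is not reported here. Each region was fitted with the 3 genotypes in 1 model (edgeR 4.0.16, R 4.3.3, filterByExpr, TMM, quasi-likelihood test), with Benjamini-Hochberg adjustment over all genes tested and a threshold of 0.05, and SE was derived from the F statistic. WT regions and the interactions were fitted over regions without a term for the mouse. Libraries of 1 mouse were thus treated as independent in these fits, and the mouse as replicate block was an alternative. The pipeline was tested on simulated data. Members, gene lists, and tests were chosen with earlier results of these data known. Values of each library are given for the up to 4 called members of lowest p per region against WT and, in WT mice, for up to 4 cerebellar and 3 other members by size of difference. *Id4* in the striatum, values side by side for both mutants, and members not called were chosen after their values were seen. Gene positions are from GENCODE M21. Mouse numbers are those of the labels and were taken to mark the same animal across regions. The cortical library of WT-221 did not match the other libraries of its number in *Xist* and *Ddx3y*. Of 116 pairs of libraries with the same mouse number, 58 had deviations correlated above 0.1 (median 0.0988). Of 59 libraries, 33 correlated best, within their genotype, with the libraries of their own number. Genotypes share no mice. DESeq2 1.42.0, its size factors, no filter, the number series as a covariate, fits of 2 genotypes, and leaving out mice or doubted libraries were alternatives.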

Additional observations from a re-analysis of the deposited data

Results flagged for a closer look

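In 77 groups of 4 libraries of the named members, 3 held a library far from the other 3 by Dixon's criterion, which chance meets in about 1 in 20 groups. *Id4* was lowest in the cerebellum of 154Q-AXH-207, at 123 CPM. It was highest in the hippocampus of 154Q-AXH-209, at 89.1 CPM. *Aqp4* was highest in the cortical library labelled 154Q-AXH-207, at 110.3 CPM, a library whose file name is that of another mouse. *Id4* was also the member called for a difference between 154Q and WT mice unequal between regions (adjusted p = 0.0350, edgeR's quasi-likelihood test of the interaction). Of all genes 5.71% were called, and the call of *Id4* was lost without WT-70, WT-220, or any single 154Q mouse.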

How the results depend on the processing

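No called difference turned its direction under any alternative run, and counts of called members moved by over 1.5 times as follows. The number series as covariate gave, for 154Q against WT, 5 called members in the cortex, 0 in the striatum, 1 in the hippocampus, and 3 in the brainstem, and for 154Q-AXH against WT 0 in the cortex and hippocampus. Fits of only the 2 genotypes compared gave 1 in the hippocampus and 7 in the brainstem for 154Q, and 12 in the cortex and 2 in the hippocampus for 154Q-AXH. DESeq2 gave 5 in the hippocampus for 154Q, 4, 7, 2, and 11 in the cerebellum, brainstem, striatum, and cortex for 154Q-AXH, and 1 in the brainstem for 154Q-AXH against 154Q. Without the filter on low counts 7 were called in the striatum for 154Q and 10 in the cortex for 154Q-AXH. With the labels of the cortical libraries of 154Q-76 and 154Q-AXH-207 exchanged, 10 were called for 154Q-AXH, and without these libraries 9 for 154Q. Without the striatal libraries of WT-220 and 154Q-AXH-217, 1 was called for 154Q-AXH. For the interaction with 154Q, 2 were called without the doubted libraries and 2 with the mouse as replicate block, which gave 0 for the interaction with 154Q-AXH and 26 to 30 for WT regions. The cause of these changes was not tested.

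Leaving out 1 mouse gave, for 154Q, 9 to 16 called members in the cortex, 1 to 13 in the striatum, 1 to 10 in the hippocampus, 5 to 12 in the brainstem, and 3 to 5 in the cerebellum, and for 154Q-AXH 2 to 10, 0 to 0, 0 to 2, 0 to 1, and 2 to 4 in this order. For 154Q-AXH against 154Q it gave 0 to 0 in each region, for WT regions 18 to 25, 23 to 27, 27 to 30, 28 to 30, and 27 to 29, and for the interactions 0 to 2 (154Q) and 0 to 0 (154Q-AXH). Of 43 calls for 154Q, 12 held under every alternative run, and 2 of 9 for 154Q-AXH. Striatal and cortical libraries were shallower, and groups of 3 or 4 mice limit all tests.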
